A study of Mus musculus with 9 samples.

Results

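Genes of the oncofetal LIN28, IGF2BP and HMGA group were followed across mouse macrophage lines of 3 origins. The 8 genes are Lin28a, Lin28b, Igf2bp1, Igf2bp2, Igf2bp3, Hmga1, Hmga2 and Arid3a. They were chosen by symbol, with earlier results of these data known, and all 8 are among the 24411 genes of the deposited table. The macrophages had been expanded from C57BL/6 mice, from yolk sac at E9.5 (YS lines), fetal liver at E14.5 (FL lines) or adult bone marrow (BM lines), 3 lines each. All lines were kept in recombinant human M-CSF, the growth factor on which they depend. Starting cells were pooled from several mice, and each line was grown in bulk from its own culture vessel. The lines grew from colonies that appeared after weeks of culture (in BM and FL cultures, after most cells had stopped dividing). Each line gave 1 poly(A)-selected, strand-specific RNA-seq library of single 75-nt reads. Since lines of a group may come from the same pool of cells, p-values here measure only the spread between lines, which may be technical. With 3 lines against 3, an exact two-sided permutation test cannot go below p = 0.1.

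LIN28A and LIN28B are RNA-binding proteins of embryonic and fetal cells. They bind precursors of the microRNA let-7 and block their maturation. Mature let-7 accumulates as tissues mature, and it represses mRNAs that carry matches to its seed in the 3′ UTR. Lin28b, the IGF2BP genes (mRNA-binding proteins that stabilize their targets), the HMGA genes (architectural chromatin proteins) and Arid3a (a DNA-binding protein of the AT-rich interaction domain family) have been described in a fetal hematopoietic program. These libraries do not measure mature let-7. The levels below are TPM values, which are scaled to a fixed total per library and divided by transcript length and can be compared between genes.

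The let-7 family shares the bases that pair with these genes, so its members are printed first, from RefSeq (GRCm38.p6). The capitals mark the seed, bases 2 to 8, and 10 of the 11 mature sequences found share the same seed, GAGGUAG. The sequence of let-7g, for example, lies at chr9:106178846-106178867 on the + strand.
mmu-let-7a-5p: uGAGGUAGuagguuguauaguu
mmu-let-7b-5p: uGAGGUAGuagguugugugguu
mmu-let-7d-5p: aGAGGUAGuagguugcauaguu
mmu-let-7e-5p: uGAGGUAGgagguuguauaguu
mmu-let-7g-5p: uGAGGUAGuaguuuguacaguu
mmu-let-7i-5p: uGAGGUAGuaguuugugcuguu
mmu-miR-98-5p: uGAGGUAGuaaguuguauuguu

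The zinc knuckles of the LIN28 proteins bind a GGAG motif in the loop of let-7 precursors. The letters GGAG were present in 9 of the 12 let-7 and miR-98 hairpins of the table, read on the transcribed strand only. The hairpin of let-7g (chr9:106178840-106178927, + strand) shows it in capitals.
Mirlet7g: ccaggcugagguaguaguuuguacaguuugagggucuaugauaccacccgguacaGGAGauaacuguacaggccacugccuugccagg

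The sequence feature the choice of genes did not use directly is a match to the let-7 seed. The longest 3′ UTR of each coding gene in GENCODE M21 (GRCm38) was searched, on the mRNA strand only, for CTACCTC, the 7-base match to the seed, and for CTACCTCA, the 8-base match that adds an A and contains the former. All 8 genes held at least 1 match of 7 bases, and 7 of 8 held 1 of 8 bases, whereas 9.02% of 21020 genes with a 3′ UTR held the former and 3.06% the latter. Several of the 8 are established let-7 targets, so this describes known biology and is not an independent result. Among 3′ UTRs within 0.8 to 1.2 times the length of each, the share with a 7-base match ranged from 8.07% for the length of Hmga1 to 33.7% for that of Igf2bp1. Counts were 4 in Lin28b, Igf2bp1 and Hmga2, 2 in Lin28a and Arid3a, and 1 in Igf2bp2, Igf2bp3 and Hmga1. Hmga2 had the most per length, with 1.33 matches per kb, against 0.472 in Igf2bp3 and 0.07 over all 3′ UTRs.

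One site of each gene is shown with the 14 bases before it, the first 8-base match after the stop codon where there is one. Capitals mark the match.
Lin28a, chr4:134005189-134005210, - strand, base 909 of the 3′ UTR: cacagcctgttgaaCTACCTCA
Lin28b, chr10:45381022-45381043, - strand, base 36: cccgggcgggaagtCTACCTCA
Igf2bp1, chr11:95961778-95961799, - strand, base 1715: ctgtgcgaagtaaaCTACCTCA
Igf2bp2, chr16:22059473-22059494, - strand, base 1313: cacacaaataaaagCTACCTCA
Igf2bp3, chr6:49086787-49086808, - strand, base 548: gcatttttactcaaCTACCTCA
Hmga1, chr17:27563278-27563299, + strand, base 801: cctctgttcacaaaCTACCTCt
Hmga2, chr10:120364224-120364245, - strand, base 58: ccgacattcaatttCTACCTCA
Arid3a, chr10:79953896-79953917, + strand, base 1974: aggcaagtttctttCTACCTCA

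Hmga1 is the gene with no 8-base match, and its site ends in t. A match is a description of the letters. It does not show that let-7 bound there in these cells.

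**Figure D1:**
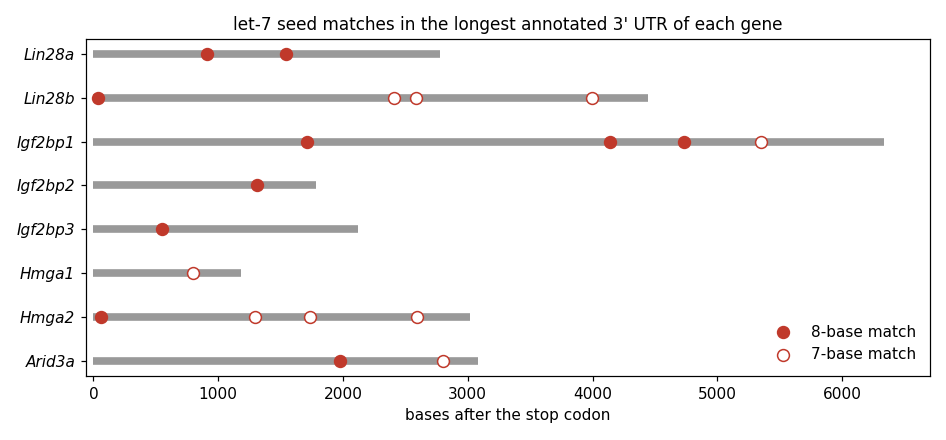
Positions of let-7 seed matches along the longest annotated 3′ UTR of the 8 genes, in bases after the stop codon (grey bars, to scale). Filled circles are 8-base matches and open circles 7-base matches; every gene has at least 1, and Lin28b, Igf2bp1 and Hmga2 have 4 each.

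Each library listed between 13345 and 14322 genes above 0. Depth cannot be read from TPM, and no counting error is given. The macrophage genes Csf1r, Adgre1, Itgam, Cd68 and Spi1 were present in every line. The sum of 8 macrophage markers was 4215, 9309 and 7952 TPM in YS lines 1 to 3, 11790 to 28520 TPM in the FL lines and 11720 to 13300 TPM in the BM lines. Every YS line was below every other line in this sum, of which Lyz2 made much. Lyz2 was at 1163.15 to 3531.31 TPM in the YS lines, 5806.07 to 21976.14 TPM in the FL lines and 5986.16 to 7841.48 TPM in the BM lines. Of the 8, Lyz2 alone had every YS line below every BM line. Fcgr1 was higher in the YS lines (122.16 to 329.94 TPM) than in the BM lines (1.68 to 42.10 TPM), and the others overlapped between YS and BM lines. The sum of 6 germ cell and pluripotency markers was 1.92 to 4.32, 1.49 to 2.69 and 1.49 to 1.91 TPM in the YS, FL and BM lines. Of these, Pou5f1, Sox2 and Dppa3 were listed at 0 in all lines, whereas Nanog was at 0.08 to 0.63 TPM and Dnd1 was at 4.10 TPM in YS line 1 and 1.25 to 2.28 TPM in the others. In BM line 2, the sum of 10 erythroid markers was 388.6 TPM, of which Hba-a1 made 214.99 TPM, against at most 14.7 TPM in any other line (Hbb-bs was listed at 0 in all lines). It also held the embryonic globins Hbb-y (43.00 TPM), Hba-x (14.76 TPM) and Hbb-bh1 (0.76 TPM), none of which was above 0.27 TPM in another line, and the fetal RNA H19 at 5.79 TPM, against at most 0.07 TPM elsewhere. BM line 2 also correlated more closely with YS line 2 (r = 0.934 across genes) than BM lines 1 and 3 did (r = 0.893 and 0.886). How closely the BM lines correlated with the other YS lines or with the FL lines was not examined. The sum of 6 endothelial markers was 30.19 to 56.33 TPM in the YS lines, 19.04 to 51.86 TPM in the FL lines and 0.22 to 3.2 TPM in the BM lines. The sum of 6 progenitor markers was 1.77 to 17.81, 1.26 to 18.48 and 0 to 0.28 TPM in the same order. Single genes made most of these sums. Kdr was at 54.35 TPM in YS line 3 and 17.37 to 50.36 TPM in the FL lines, and Tie1 at 25.82 TPM in YS line 1. Tek and Esam were at 0.29 TPM or less in every line. Cd34 was at 16.17 TPM in YS line 1 and 18.35 TPM in FL line 2, while Kit, Myb, Mecom and Hlf were at 0.14 TPM or less in every line. The part of these marker genes in the results was not tested. In bulk RNA, fewer expressing cells and less RNA per cell cannot be told apart.

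Differences were tested with limma on log2(TPM + 1) over the 11753 genes that reached 1 TPM in 3 or more of the 9 libraries, a scale that understates the change of low genes. A gene was called at an adjusted p under 0.1 (Benjamini-Hochberg over all tested genes) and a change of more than 2-fold. Of the 8 genes, 6 passed the filter and Lin28a and Lin28b did not. A gene that is high in only 1 group passes the filter through that group, as Igf2bp1 did. Between the YS and the BM lines, 3 of the 6 were called, all higher in the YS lines (Igf2bp1, Igf2bp2 and Igf2bp3). Of all tested genes, 12.8% were called in that comparison, 7.57% higher and 5.22% lower in the YS lines. Between the FL and the BM lines, 3 of 6 were called, Igf2bp3 and Arid3a higher and Hmga2 lower in the FL lines, where 10.3% of all tested genes were called, 6.01% higher and 4.3% lower. Between the YS and the FL lines, 2 of 6 were called, Igf2bp1 and Hmga2, both higher in the YS lines, with 3.79% of all tested genes called, 1.95% higher and 1.85% lower. The groups did not overlap for 2, 3 and 3 of the 6 genes in the same order of comparisons. Among all tested genes the groups did not overlap for 49%, 49.5% and 26.1%, so non-overlap alone was not rare. The 3 comparisons share lines and are not independent of each other. Because the genes were chosen with earlier results of these data known, their counts beside these shares are a description and not a test.

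**Figure D2:**
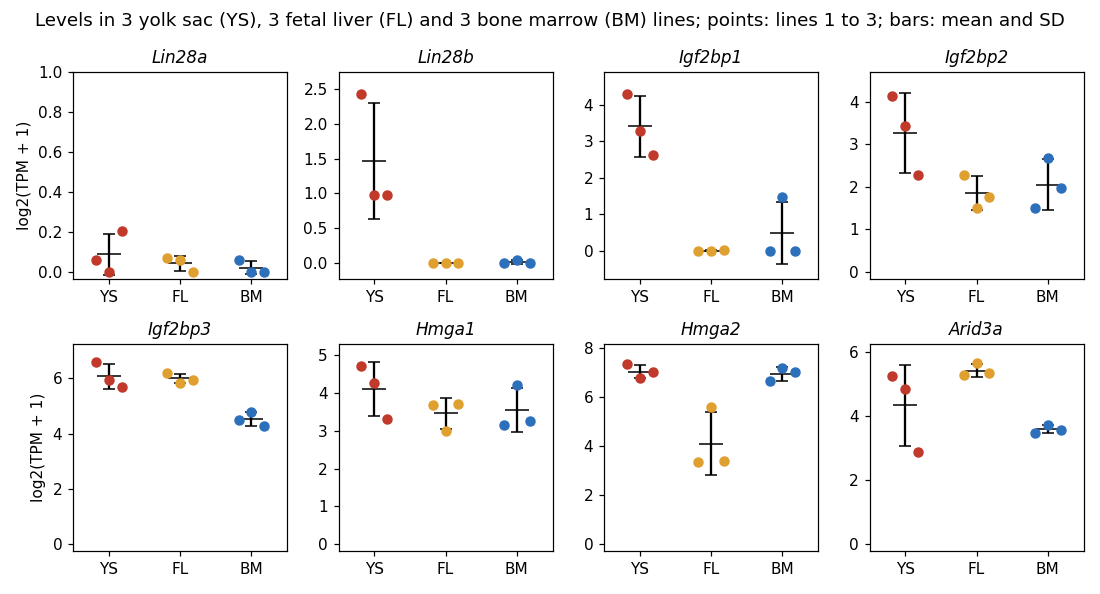
Levels of the 8 genes as log2(TPM + 1) in 3 YS, 3 FL and 3 BM lines; points are lines 1 to 3 from left to right, and bars give the mean and SD. Lin28b and Igf2bp1 are higher in the 3 YS lines than in any other line, though Lin28b is at 0.97 TPM in YS lines 2 and 3. Igf2bp3 is higher in YS and FL lines than in BM lines, and Hmga2 is low in the FL lines.

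Lin28b was found in the YS lines. YS lines 1 to 3 had 4.37, 0.97 and 0.97 TPM. It was listed at 0 in all 3 FL lines and in BM lines 1 and 3, and was 0.03 TPM in BM line 2. Every YS line was above every other line, although 2 of the YS lines were just under 1 TPM, which kept the gene out of the test across genes. The difference of mean log2(TPM + 1) was 1.45 between the YS and the BM lines and 1.46 between the YS and the FL lines. At such low levels the size depends on the pseudocount added to TPM, with 3.98 and 4.11 at 0.1 and 0.56 and 0.56 at 4. Each of these differences had p = 0.1 in the exact two-sided permutation test, the smallest it can give (0.24 after adjustment over the 24 exact tests of the 8 genes). Without the filter on low values, limma called Lin28b higher in the YS lines in both comparisons.

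Lin28a, its paralog of early embryos and germ cells, was at 0.15 TPM or less in every line. It was 0.04, 0.00 and 0.15 TPM in the YS lines, 0.05, 0.04 and 0.00 TPM in the FL lines, and 0.04, 0.00 and 0.00 TPM in the BM lines. These values overlapped in all comparisons (exact two-sided permutation p = 0.7, 0.7 and 0.9 for YS against BM, FL against BM and YS against FL lines).

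Igf2bp1 was higher in the YS lines than in either other origin. In YS lines 1 to 3, its level was 18.70, 8.76 and 5.16 TPM. In the FL lines it was listed at 0 in lines 1 and 2 and was 0.02 TPM in line 3. In the BM lines it was listed at 0 in lines 1 and 3 and was 1.76 TPM in line 2, the line with erythroid transcripts, embryonic globins included. The log2 fold change was 2.92 between the YS and the BM lines (SE 0.50, limma adjusted p = 0.00546) and 3.39 between the YS and the FL lines (SE 0.50, limma adjusted p = 0.0157). Because most FL and BM values are at or near 0, these sizes depend on the pseudocount: with 0.1 in place of 1 they were 5.18 and 6.49, and with 4 they were 1.62 and 1.79, called each time. Within each of these comparisons, Igf2bp1 had the largest difference of the 6 tested genes on the log2(TPM + 1) scale. With a pseudocount of 4, Hmga2 differed more between the YS and the FL lines (2.69). Without BM line 2, the difference between the YS and the BM lines was 3.40. FL and BM lines were not distinguished (log2 fold change -0.48, limma adjusted p = 0.552). In BM line 2, the level of Igf2bp1 was 20.1% of that in YS line 2, and that of Lin28b was 3.09%. The median was 14.1% over the 45 genes at 20 TPM or above in YS line 2 and below 0.5 TPM in both other BM lines. Igf2bp1 and Lin28b were below 20 TPM in YS line 2, so neither is among the 45 and the percentages are not like for like. No other YS line was compared, and what lies behind these percentages was not tested.

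Igf2bp3 was higher in both groups of fetal origin than in the BM lines. It was at 95.41, 59.79 and 50.99 TPM in the YS lines, 72.12, 56.59 and 61.15 TPM in the FL lines, and 21.74, 26.50 and 18.44 TPM in the BM lines. The lowest YS or FL line was above the highest BM line. The log2 fold change was 1.55 between the YS and the BM lines (SE 0.23, limma adjusted p = 0.00346) and 1.48 between the FL and the BM lines (SE 0.23, limma adjusted p = 0.00378). YS and FL lines overlapped, with a log2 fold change of 0.07 (SE 0.23, limma adjusted p = 0.866). Both calls against BM lines held with each line left out.

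Igf2bp2, the paralog that stays on in many adult tissues, was at 16.54, 9.74 and 3.82 TPM in the YS lines. It was at 3.86, 1.82 and 2.40 TPM in the FL lines and at 1.82, 5.41 and 2.93 TPM in the BM lines. YS line 3 lay within the range of the BM lines and below FL line 1. Its call as higher in YS than in the BM lines (log2 fold change 1.23, SE 0.49, limma adjusted p = 0.0916) was close to the threshold. It was lost in 14 of 20 alternatives. With a line left out, the log2 fold change ranged from 0.80 (without YS line 1) to 1.73 (without YS line 3), and the call was kept only without YS line 3 or BM line 2 (1.54). The difference between the YS and the FL lines was 1.43 (SE 0.49, limma adjusted p = 0.114) and was called only without YS line 3 (1.93).

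Igf2bp3 made most of the IGF2BP mRNA in every line. Its share of the summed TPM of the 3 paralogs was 78.1% ± 6.19 in the YS lines, 96.0% ± 1.00 in the FL lines and 85.8% ± 6.80 in the BM lines (SD, n = 3 each). Igf2bp1 made 14.3%, 11.2% and 8.6% in YS lines 1 to 3. It made at most 0.0315% in an FL line, and 5.23% in BM line 2. The summed TPM was 59.97 to 130.6 in the YS lines, 58.41 to 75.98 in the FL lines and 21.37 to 33.67 in the BM lines, so all YS and FL lines were above all BM lines. No stretch of 75 bases, the read length, was shared between their coding transcripts.

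**Figure D3:**
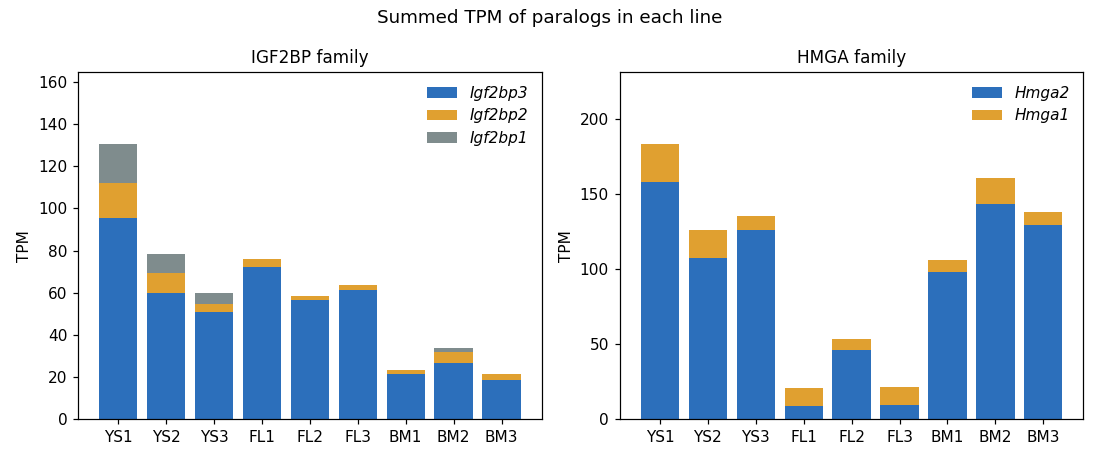
Stacked TPM of the IGF2BP paralogs (left) and of Hmga2 and Hmga1 (right) in each of the 9 lines. Igf2bp3 is the largest IGF2BP part in all lines, and Hmga2 is the larger HMGA part in all lines except FL lines 1 and 3.

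Hmga2 had another pattern, being low in the FL lines, with overlapping levels in the YS and BM lines. It was at 158.27, 107.51 and 126.26 TPM in the YS lines and at 97.91, 143.15 and 129.46 TPM in the BM lines. In the FL lines it was at 9.01, 46.26 and 9.37 TPM, so FL line 2 was higher than the other FL lines but lower than any YS or BM line. The log2 fold change was -2.86 between the FL and the BM lines (SE 0.53, limma adjusted p = 0.00741) and 2.94 between the YS and the FL lines (SE 0.53, limma adjusted p = 0.0275). Without FL line 2 these were -3.59 and 3.67. The second call was lost when only YS and FL lines were fitted. For YS against BM lines the log2 fold change was 0.08 (SE 0.53, limma adjusted p = 0.923), and its sign turned with the scaling of the libraries. Hmga2-ps1, a transcribed pseudogene of Hmga2, did not have the low FL values: it was at 52.51, 45.60 and 46.33 TPM in the YS lines, 43.08, 54.34 and 27.88 TPM in the FL lines, and 27.10, 30.55 and 25.20 TPM in the BM lines. How far Hmga2 and this pseudogene share reads was not tested.

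Hmga1 did not pass the test in any comparison. It was at 25.32, 18.25 and 8.97 TPM in the YS lines, 11.89, 7.00 and 12.23 TPM in the FL lines, and 7.96, 17.59 and 8.64 TPM in the BM lines. The log2 fold change was 0.55 between the YS and the BM lines (SE 0.41, limma adjusted p = 0.338) and 0.63 between the YS and the FL lines (SE 0.41, limma adjusted p = 0.36). How far Hmga1 shares reads with near-identical sequence elsewhere in the genome was not tested.

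Arid3a was highest in the FL lines. It was at 37.66, 48.69 and 38.96 TPM in the FL lines and at 10.03, 12.19 and 10.76 TPM in the BM lines, which did not overlap. In the YS lines it was at 36.67, 27.83 and 6.34 TPM, so YS line 3 was below every BM line and the other YS lines were above them. The log2 fold change between the FL and the BM lines was 1.83 (SE 0.51, limma adjusted p = 0.0386). This call was lost without FL line 2 (1.72), BM line 1 (1.77) or BM line 3 (1.82). For YS against BM lines it was 0.74 (SE 0.51, limma adjusted p = 0.306), and without YS line 3 it was 1.46 and called. Between the YS and the FL lines it was -1.09 (SE 0.51, limma adjusted p = 0.223), although every FL line was above every YS line.

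**Figure D4:**
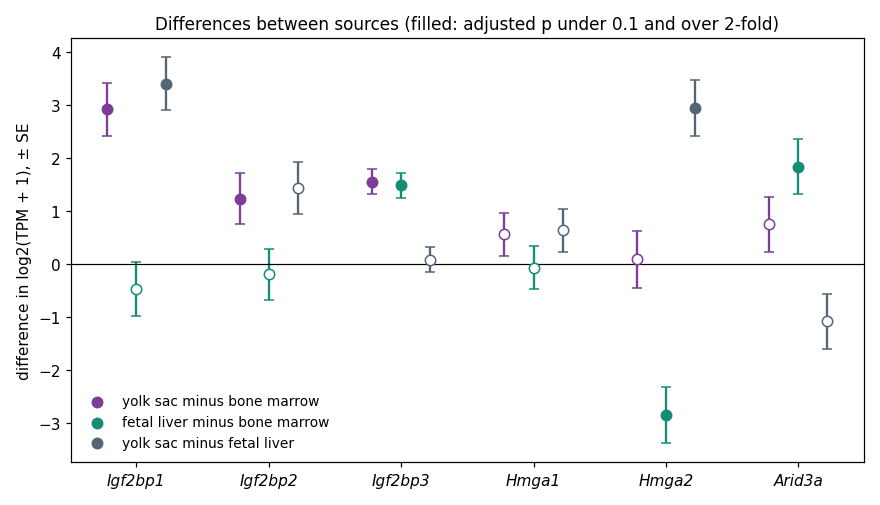
Differences in log2(TPM + 1) between origins for the 6 genes that passed the filter, with SE from limma; filled points were called and open points were not. Igf2bp1 and Hmga2 differ between the YS and the FL lines, Igf2bp3 and Arid3a are higher in FL than in the BM lines, and Hmga1 has no called difference.

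The order of the genes by mean TPM differed between origins. In the YS lines Hmga2 (131 ± 25.7 TPM) was above Igf2bp3 (68.7 ± 23.5 TPM), and their lines did not overlap. Arid3a (23.6 ± 15.6 TPM), Hmga1 (17.5 ± 8.20 TPM), Igf2bp1 (10.9 ± 7.01 TPM) and Igf2bp2 (10.03 ± 6.37 TPM) followed with overlapping lines, then Lin28b (2.10 ± 1.96 TPM), whose highest line was above the lowest Igf2bp2 line. In the FL lines the order was Igf2bp3 (63.3 ± 7.98 TPM), Arid3a (41.8 ± 6.03 TPM), Hmga2 (21.5 ± 21.4 TPM), Hmga1 (10.4 ± 2.93 TPM) and Igf2bp2 (2.69 ± 1.05 TPM), of which Arid3a overlapped with Hmga2, and Hmga2 with Hmga1. In the BM lines Hmga2 (124 ± 23.2 TPM) was followed by Igf2bp3 (22.2 ± 4.05 TPM), then by Hmga1 (11.4 ± 5.37 TPM) and Arid3a (10.99 ± 1.10 TPM), which overlapped, and by Igf2bp2 (3.39 ± 1.84 TPM) (SD, n = 3 lines each).

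The lines of a group also differed in a shared way. YS line 1 was the highest YS line for all 6 tested genes, whereas it was the highest for 44.4% of all tested genes. BM line 2 was the highest BM line for all 6, against 31.8% of all tested genes. In the FL lines no line led, with 2 of the 6 genes highest in each. YS line 1 is the line with the lowest macrophage marker sum and BM line 2 the line with erythroid transcripts, and the part of either in these levels was not tested.

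Genes that act with this group were listed by role. Among 26 further genes described as let-7 targets, 18 (69.2%) held a 7-base seed match in the longest 3′ UTR, and 21 passed the filter; 5 of the 26 also stand in another list below. In YS against BM lines, 2 rose and 2 fell, where 7.57% of all tested genes were called higher and 5.22% lower, and the median log2 fold change was 0.41, against 0.11 over all tested genes. Ccnd2, which encodes the G1 cyclin D2, was at 132.00, 101.92 and 246.56 TPM in the YS lines, 107.33, 96.22 and 45.48 TPM in the FL lines, and 0.00, 13.97 and 0.10 TPM in the BM lines. It rose against BM lines in the YS lines (log2 fold change 5.88, SE 0.95, limma adjusted p = 0.00442) and FL lines (4.95, SE 0.95, limma adjusted p = 0.00837). Both calls held in all 20 alternatives, but the size varied: it was 7.16 and 6.23 without BM line 2, 5.21 and 4.28 without BM line 1, 7.83 and 6.89 with a pseudocount of 0.1, and 4.53 and 3.62 with 4. The Ccnd2 searched 3′ UTR held no match. Igf1r, the receptor of insulin-like growth factors, held 2 matches and was at 13.59, 6.36 and 5.80 TPM in the YS lines, 4.92, 3.20 and 1.07 TPM in the FL lines, and 0.00, 1.39 and 0.00 TPM in the BM lines. It was called higher in YS than in the BM lines (2.75, limma adjusted p = 0.00694) and in FL than in the BM lines (1.48, limma adjusted p = 0.0738). FL line 3 was below BM line 2. With pseudocounts of 0.1 and 4, the YS difference of Igf1r was 5.03 and 1.46. The second call was lost in 7 of 20 alternatives, among them those without FL line 1 (1.14), FL line 2 (1.39), BM line 1 (1.27) or BM line 3 (1.27).

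The let-7 targets that fell had seed matches too. Map4k3, a kinase of the MAP4K family, held 1 match and was at 26.11, 24.64 and 23.78 TPM in the YS lines, 21.17, 25.88 and 23.39 TPM in the FL lines, and 60.04, 48.17 and 65.28 TPM in the BM lines. It was lower in the YS lines (log2 fold change -1.18, limma adjusted p = 0.00158) and in the FL lines (-1.26, limma adjusted p = 0.000987) than in the BM lines. E2f5, an E2F transcription factor with 1 match, was at 9.57, 14.86 and 6.47 TPM in the YS lines, 18.49, 7.54 and 11.58 TPM in the FL lines, and 22.89, 21.64 and 19.53 TPM in the BM lines. Every BM line was above every other line. E2f5 was lower in YS than in the BM lines (-1.05, SE 0.34, limma adjusted p = 0.0481), a call that was lost without YS line 3 (-0.79) or any BM line (-1.11 without line 3). Between the FL and the BM lines, 2 of the 21 targets rose and 1 fell, where 6.01% of all tested genes were called higher and 4.3% lower, with a median of 0.28 against 0.09 over all tested genes. At an unadjusted p under 0.05, 10 targets were higher and 2 lower in YS than in the BM lines, where 41.2% of all tested genes differed. For FL against BM lines 6 were higher and 2 lower (33.6% of all tested genes), and for YS against FL lines 3 and 1 (25.7%). Between the YS and the FL lines none rose by the limma call and Irs2 fell, where 1.95% of all tested genes were called higher and 1.85% lower. Irs2, an adaptor of insulin and IGF receptors, was at 0.04, 7.33 and 2.84 TPM in the YS lines and 10.93, 20.51 and 18.20 TPM in the FL lines (-2.40, limma adjusted p = 0.0659), and this call was lost in 9 of 20 alternatives, among them those without FL line 2 (-2.23), FL line 3 (-2.32) or any 1 BM line (-2.40). It was -1.59 without YS line 1 and -3.09 without YS line 2.

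**Figure D5:**
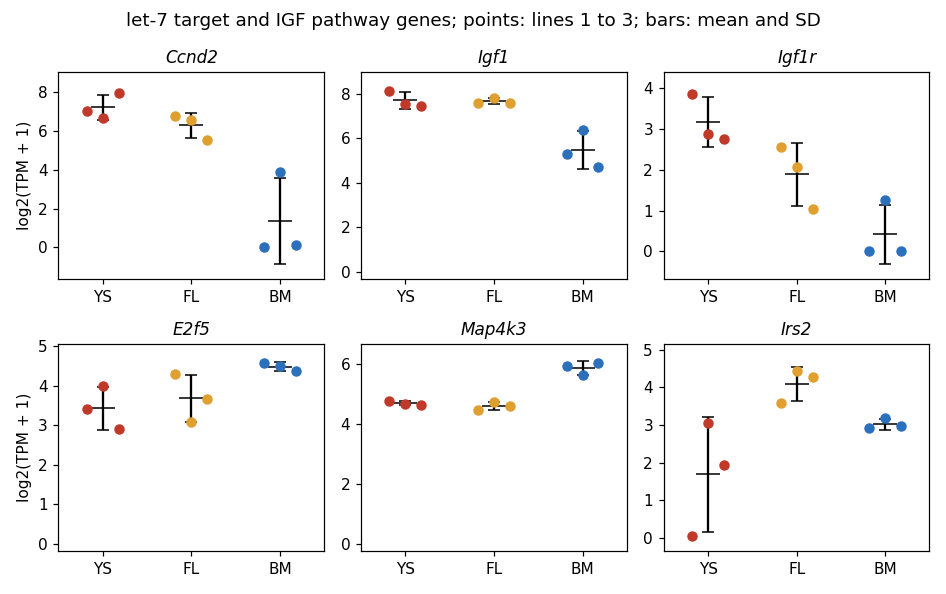
Levels of 6 let-7 target or IGF pathway genes as log2(TPM + 1) in the 9 lines; points are lines 1 to 3 from left to right, and bars give the mean and SD. Every BM line is below every other line for Ccnd2 and Igf1 and above every other line for Map4k3 and E2f5, and BM line 2 lies above the other BM lines for Ccnd2, Igf1 and Igf1r.

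Of the 17 listed genes of the IGF axis, 6 passed the filter. Igf1, a growth factor that macrophages secrete, was at 280.15, 183.64 and 170.89 TPM in the YS lines, 191.87, 225.43 and 191.24 TPM in the FL lines, and 38.46, 82.35 and 24.81 TPM in the BM lines. It was higher in the YS lines (log2 fold change 2.24, SE 0.38, limma adjusted p = 0.00525) and in the FL lines (2.21, SE 0.38, limma adjusted p = 0.00531) than in the BM lines. Igf1r, given above, was the other gene called against BM lines, so 2 of 6 were called in both comparisons, where 12.8% (YS) and 10.3% (FL) of all tested genes were. Igf2, the fetal growth factor after whose mRNA the IGF2BP proteins are named, was listed at 0 in 6 of the 9 lines and was highest in BM line 2, at 1.92 TPM.

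Of the 20 proteins that process, uridylate, degrade or load let-7 (among them Drosha, Dicer1 and Dis3l2), all were tested and none was called by limma in any comparison. At an unadjusted p under 0.05, 8, 5 and 9 of them differed (YS against BM, FL against BM and YS against FL lines), where 41.2%, 33.6% and 25.7% of all tested genes did. Of 21 m6A writers, erasers, readers and IGF2BP cofactors, all tested, none was called by limma, and 10, 6 and 4 had an unadjusted p under 0.05. All 10 of the first were higher in the YS lines, by less than 2-fold, where 41.2% of all tested genes differed in either direction. How many of all tested genes were higher at that p was not counted. Of 11 tested HMG genes outside the group, none was called by limma, with 6, 4 and 1 at an unadjusted p under 0.05. Of 12 tested further ARID genes, 1 was called: Kdm5b, a histone demethylase, was lower in FL than in the BM lines (log2 fold change -1.36, limma adjusted p = 0.00672). The Kdm5b call was lost with a pseudocount of 4 (-0.59), and the gene did not pass a filter of 5 TPM in 3 libraries. In the other comparisons of the ARID genes none was called by limma, with 4 at an unadjusted p under 0.05 in each.

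let-7 itself could only be seen through its genes. Of 12 let-7 and miR-98 symbols in the table, Mirlet7d alone was above 0. It was listed at 5.47 TPM in FL line 1, 4.97 TPM in BM line 1 and 5.00 TPM in BM line 3, and at 0 in the other 6 lines, all YS lines included. A poly(A) library does not capture the short precursor reliably, so no level of let-7 follows from this. Transcripts that overlap let-7 hairpins on the same strand were examined after their values were seen. Those at let-7a-1, let-7b, let-7c-2, let-7d, let-7f-1 and let-7i had no listed value. Wdr82, which hosts let-7g, was at 65.40 to 99.14 TPM in the YS lines, 44.04 to 72.98 TPM in the FL lines and 45.07 to 50.24 TPM in the BM lines. Huwe1, which hosts let-7f-2 and miR-98, was at 42.85 TPM or more in every line. Spaca6, at the let-7e hairpin, was at 0.14, 1.15 and 2.51 TPM in the YS lines, 0.93, 2.01 and 1.87 TPM in the FL lines and 6.19, 3.18 and 3.39 TPM in the BM lines. At let-7a-2, 3110039I08Rik was at 0.05 to 2.46, 1.10 to 5.11 and 0.15 to 1.28 TPM in the same order, and Mir99ahg, at let-7c-1, was at 0.77 TPM or less in every line.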

How the data were processed

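Poly(A)-selected, stranded libraries of 9 lines (1 each) were sequenced by the authors as single 75-nt reads. The deposited table gives TPM for 24411 symbols. The submitters' processing notes name Trim Galore 0.6.6, STAR 2.7.9a and RSEM 1.3.3; the build and annotation are not given in the sources used here. TPM holds no depth, so precision was judged from the spread among lines. Unmatched sample columns numbered 0. Groups and line numbers came from the labels.

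From TPM, log2(TPM + 1) of 11753 genes (at least 1 TPM in at least 3 libraries) was fitted with limma 3.58.1 in R 4.3.3 over all 9 libraries, with an intensity trend and Benjamini-Hochberg adjustment. The fit was tested on simulated data. The 8 genes were also tested singly with an exact two-sided permutation test. Named were the 8 genes, up to 4 called genes per list and comparison with the largest change, let-7 symbols above 0, and the 3 genes most correlated with each tested gene. A few listed genes are not reported here. The genes and lists were chosen with earlier results of these data known. Seed matches came from GENCODE M21 and RefSeq tables. Alternatives changed the pseudocount, filter, scaling, trend, libraries, thresholds and lines, and added the replicate block.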

Additional observations from a re-analysis of the deposited data

How the results depend on the processing

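The 20 alternatives were run for the tested genes (19 for Kdm5b, which did not pass the filter of 5 TPM), and 8 of them for Lin28a and Lin28b, whose pseudocounts and lines were changed. The calls of Igf2bp1 (YS against BM and FL lines), of Igf2bp3 (YS and FL against BM lines) and of Hmga2 (FL against BM lines) were kept in all 20. With a line left out, 2 to 4 of the 8 genes were called for YS against BM, 2 to 3 for FL against BM and 2 to 3 for YS against FL, and fitting only YS and FL lines left 1 for the last (Igf2bp1). Without the filter, Lin28b was called in place of Igf2bp2 for YS against BM. Of all genes, 1504, 1211 and 446 were called (YS against BM, FL against BM, YS against FL). Without a fold threshold these were 4455, 3247 and 1500. The last was 280 with a pseudocount of 4, 81 with 2 groups only, 234 at an adjusted p under 0.05, and 191 to 588 with a line left out. Fold changes near 0 turned sign, never with a call. With a line left out, FL against BM ranged from -0.72 to 0.0095 for Igf2bp1, from -0.48 to 0.11 for Igf2bp2 and from -0.27 to 0.26 for Hmga1 (highest without BM line 2 in each, and 0.16 for Hmga1 without FL line 2). Igf2bp3 in YS against FL ranged from -0.19 (without YS line 1) to 0.26. Hmga2 in YS against BM ranged from -0.077 (without BM line 1) to 0.21, and was -0.0089 with quantile normalization and -0.033 with median-of-ratios scaling. The causes were not tested. The replicate block gave 1503, 1191 and 409 genes and 2, 3 and 2 of the 8. Nothing in the labels pairs same-numbered lines. Their deviations from group means correlated between -0.118 and 0.0878 across tested genes, which cannot show whether such lines shared a step.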

Other observations

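The genes whose log2(TPM + 1) followed each gene most closely over the 9 libraries are a description, since libraries of a group share an origin. For Igf2bp1 they were Lhfp (Pearson's r = 0.995), Lhx8 (0.991) and Dzip1l (0.990). Lhfp was at 56.84, 16.08 and 7.00 TPM in the YS lines, at most 0.08 TPM in the FL lines, and at 0.00, 1.83 and 0.00 TPM in the BM lines. For Igf2bp3 they were Man2a2 (0.993), Gart (0.990) and Aif1 (0.986). Aif1, which encodes the macrophage protein IBA1, was at 70.90 to 177.25 TPM in the YS lines, 95.18 to 141.40 TPM in the FL lines and 6.53 to 23.47 TPM in the BM lines. Gart, an enzyme of purine synthesis, was at 59.04 to 106.82, 65.49 to 70.91 and 29.00 to 34.51 TPM in the same order. For Hmga2 they were Slc16a3 (0.977), Tmem223 (0.973) and Jtb (0.955). Slc16a3, the lactate transporter MCT4, was at 136.08, 113.37 and 66.40 TPM in the YS lines, 0.21, 25.85 and 0.51 TPM in the FL lines, and 190.06, 199.02 and 228.77 TPM in the BM lines, with FL line 2 above the other FL lines as for Hmga2. For Arid3a they were Slc3a2 (0.982), Sipa1l2 (0.977) and Sirpa (0.974), for Igf2bp2 Rrad (0.981), Orc6 (0.957) and Tbx15 (0.955), and for Hmga1 Trmu (0.955), Pard6a (0.954) and Mavs (0.919).

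Genes with a let-7 seed match were counted among all tested genes. Of the 10727 tested genes with a 3′ UTR, 383 held an 8-base match, and 34 of them were called higher and 18 lower in YS than in the BM lines (13.6%, against 12.8% of all 10727). The shares were 9.66% against 10.3% between the FL and the BM lines and 4.18% against 3.76% between the YS and the FL lines. The median log2 fold change was 0.12 against 0.11, 0.14 against 0.10, and 0.02 against 0.02. At least 2 matches of 7 bases were held by 137 genes. Of these, 14 were called higher and 4 lower in YS than in the BM lines (13.1%). In FL against BM lines 12 were called higher and 6 lower (13.1%), and in YS against FL lines 5 higher and 1 lower (4.38%). Their medians were 0.139, 0.17 and 0.015, against 0.113, 0.095 and 0.0206 over all 10727. The chosen genes were not removed from these sets. The 137 include Igf2bp1, Hmga2 and Arid3a, of which Igf2bp1 and Hmga2 were called higher in YS than in the FL lines. The 383 include the same genes and also Igf2bp2 and Igf2bp3. These are counts with no test, and 3′ UTR annotation may differ from the transcripts of these cells.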
